A study of Drosophila melanogaster with 10 samples.

Results

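The levels of 10 Polycomb and trithorax group genes were followed after knockdown of nbr in a cultured fly cell line. The genes are Pc, ph-p, ph-d, Psc, Su(z)2, E(z), esc, ash1, trx and brm. They were taken as every probe set whose symbol column held a member's symbol and no other, which gave 10 probe sets, 1 for each gene, of 18952 on the array. No probe set carried a member beside another symbol.

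DL1 cells, a Drosophila melanogaster line grown at 25 degrees, were bathed in dsRNA against nbr (CG9247) or against renilla, a sequence foreign to the fly that serves as the control, and were collected after 5 days. There were 5 arrays of nbr RNAi and 5 of control RNAi, described by the submitters as independent replicates. The labels name no other genetic change or agent in either group, and both groups are the same cell line. The levels are log2 GCRMA values for Affymetrix Drosophila_2 probe sets, whose precision is limited by the number of arrays.

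Polycomb group proteins keep developmental genes silent, and trithorax group proteins keep them active. They work in complexes. Polycomb repressive complex 2 methylates histone H3, Polycomb repressive complex 1 binds that mark and compacts chromatin, and trithorax group proteins include histone methyltransferases and the ATP-driven Brahma remodelling complex. Both groups were found in flies through mutations that misdirect the homeotic genes, which set segment identity, and both have been studied widely in cultured fly cells. In the ontology terms of the deposited table, chromatin silencing is listed for 6 members (Pc, ph-p, ph-d, Psc, E(z) and esc) and for 41 tested probe sets in all.

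The nbr probe set was lower on all 5 nbr RNAi arrays (7.56 to 8.84) than on all 5 control RNAi arrays (11.16 to 11.48). It fell by 3.16 on the log2 scale (limma, Benjamini-Hochberg adjusted p = 1.46e-04). Of the nbr RNAi arrays, array 5 kept the highest nbr level, 8.84. That array also stood apart over the whole genome, with a median correlation across probe sets of 0.982 with the other 9 arrays, against 0.994 to 0.997 for each other array with its own other 9. Of 7729 tested probe sets (mean level of at least 4), it lay below nbr RNAi arrays 1 to 4 for 26.4% and above them for 45.6%. Markers of blood cells were present (10 of 13 genes at a mean of at least 4, with He, crq, BM-40-SPARC and srp among them), while vkg, Cg25C and Sr-CI were near background. No fat body, muscle or germline marker reached a level of 4, and of the neuron markers elav did.

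None of the 10 genes passed the test for a shift with nbr knockdown, and the levels of the 2 groups overlapped for each of them, as they did for most probe sets (all nbr RNAi arrays were above all control RNAi arrays for 0.75% and below them for 0.22%). The log2 fold changes (nbr RNAi minus control RNAi) ran from -0.68 for ash1 to 0.21 for esc, with a median of 0.016, against a median of 0.0056 over all tested probe sets. Of the 10, 6 had a higher mean in nbr RNAi, against 52.9% of tested probe sets, and 4 a lower one. The limma Benjamini-Hochberg adjusted p ran from 0.849 to 0.992, and 0 members were called, where 0.0259% of all tested probe sets were. At an unadjusted p under 0.05 limma counted 1 member, esc, against 5.87% of tested probe sets (4.15% counted as higher only). An unmoderated equal-variance test gave esc an unadjusted p of 0.0553 and counted 0 members. Its share over all tested probe sets was not taken. These p-values measure the spread between the arrays of these cultures.

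**Figure D1:**
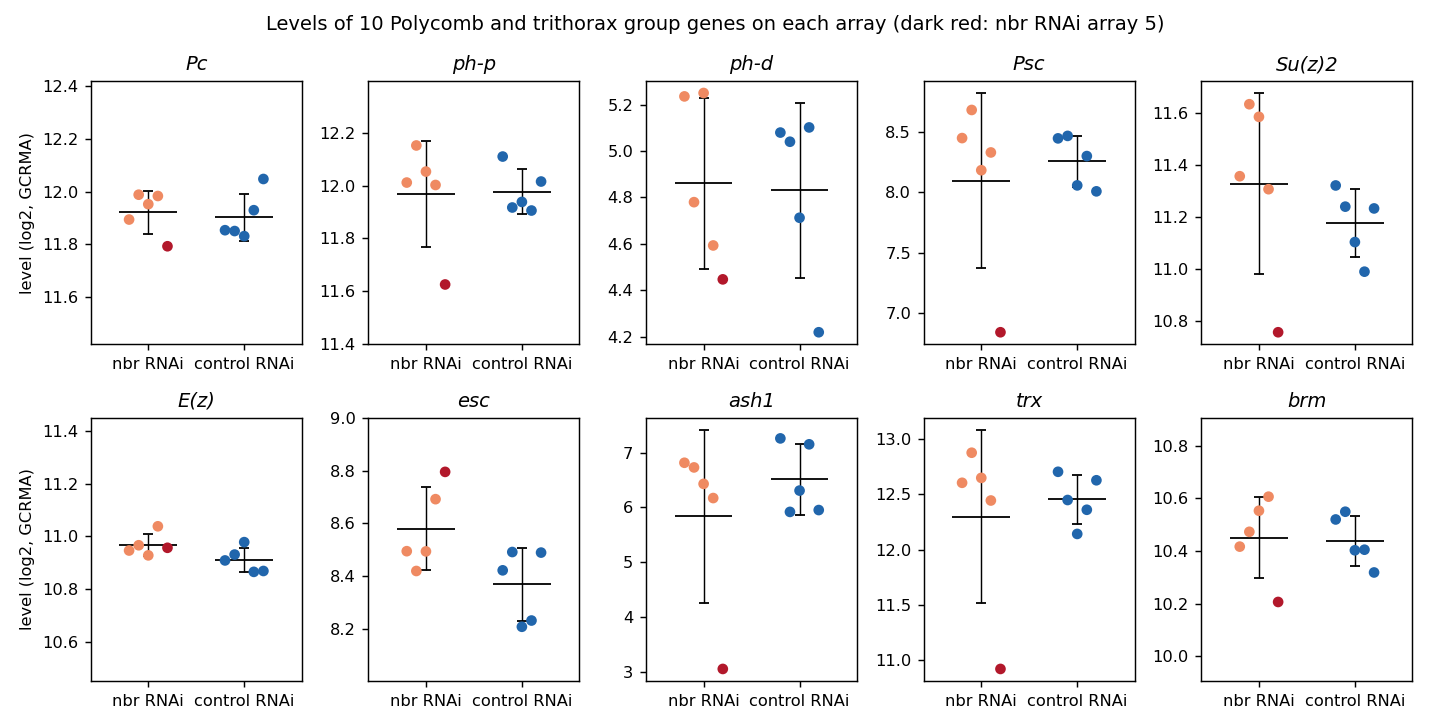
Level (log2 GCRMA) of each of the 10 genes on each array, nbr RNAi at left and control RNAi at right, with the mean and SD of the 5 arrays as bars; axes differ between panels and show at least 1 log2 unit. Points run from array 1 to 5 within a group, and nbr RNAi array 5 (dark red) is the lowest nbr RNAi point for 8 genes and the highest for esc.

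Of the subunits of Polycomb repressive complex 1, Psc had the largest SD over the 5 nbr RNAi arrays. In control RNAi the largest was that of ph-d, at 0.38. Psc (FBgn0005624), a RING finger subunit that compacts nucleosomes, had levels of 8.45, 8.68, 8.18, 8.33 and 6.84 on nbr RNAi arrays 1 to 5 and 8.44, 8.46, 8.06, 8.30 and 8.01 on control RNAi arrays 1 to 5. The first 4 nbr RNAi arrays lay among or just above the controls, and array 5 lay below all 9 other arrays. Its mean was 8.10 ± 0.72 in nbr RNAi and 8.25 ± 0.21 in control RNAi (SD, n = 5 each), which gives a log2 fold change of -0.16 (95% interval -0.82 to 0.51, limma Benjamini-Hochberg adjusted p = 0.960). Without nbr RNAi array 5 the log2 fold change was 0.15, with an interval of -0.13 to 0.44.

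Su(z)2 (FBgn0008654) encodes a protein related to Psc, and both genes lie on chromosome arm 2R, with CG33798 the only protein-coding gene between them (RefSeq table, assembly Release 6 plus ISO1 MT). Its levels were 11.36, 11.64, 11.59, 11.31 and 10.76 on nbr RNAi arrays 1 to 5 and 11.32, 11.24, 11.10, 10.99 and 11.23 on control RNAi arrays 1 to 5. Arrays 1, 2 and 3 of nbr RNAi were above every control, and array 5 was below every other array. The mean was 11.33 ± 0.35 in nbr RNAi and 11.18 ± 0.13 in control RNAi (SD, n = 5 each), which gives a log2 fold change of 0.15 (interval -0.18 to 0.49, limma adjusted p = 0.909). In the fit of the other 9 arrays it was 0.29, the largest of the 10 in that fit. Its interval there was 0.095 to 0.49 and its adjusted p was 0.468 in limma. Array 5 was picked out from these data and held the lowest level, so leaving it out must raise the nbr RNAi mean.

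Pc (FBgn0003042), the chromodomain subunit that reads the Polycomb mark, varied little. It had 11.89, 11.99, 11.95, 11.98 and 11.79 on nbr RNAi arrays 1 to 5 and 11.85, 11.85, 11.83, 11.93 and 12.05 on control RNAi arrays 1 to 5. The highest array was a control and the lowest was nbr RNAi array 5. Its log2 fold change was 0.020 (interval -0.11 to 0.14, limma adjusted p = 0.971).

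The Polyhomeotic subunits are encoded by ph-d and ph-p, which adjoin on the X chromosome in that annotation and arose by duplication. The ph-p probe set (FBgn0004861) had 12.012, 12.153, 12.054, 12.003 and 11.625 on nbr RNAi arrays 1 to 5 and 12.111, 11.917, 11.938, 11.906 and 12.016 on control RNAi arrays 1 to 5. The groups shared one range except for nbr RNAi array 5, which was lower than any other array, and nbr RNAi array 2, which was higher. The ph-d probe set (FBgn0004860) had 5.24, 4.78, 5.25, 4.59 and 4.45 on nbr RNAi arrays 1 to 5 and 5.08, 5.04, 4.71, 5.10 and 4.22 on control RNAi arrays 1 to 5.

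Both ph genes had log2 fold changes near 0, at -0.0084 for ph-p (interval -0.21 to 0.19) and 0.030 for ph-d (-0.44 to 0.50). The interval of ph-d was the wider, and its lowest array was control RNAi array 5. How far the probes of either gene pick up transcripts of the other was not tested, since probe sequences were not used here.

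Of Polycomb repressive complex 2, E(z) was the steadiest of all 10 genes. E(z) (FBgn0000629), the histone methyltransferase, had 10.95, 10.97, 10.93, 11.04 and 10.96 on nbr RNAi arrays 1 to 5 and 10.91, 10.93, 10.98, 10.87 and 10.87 on control RNAi arrays 1 to 5. All 5 nbr RNAi arrays were above the control mean, yet control RNAi array 3 exceeded all but nbr RNAi array 4. The log2 fold change was 0.057 with the narrowest interval of the 10 genes, -0.029 to 0.14 (limma, adjusted p = 0.876).

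The WD-repeat subunit esc (FBgn0000588), which stimulates E(z), had 8.49, 8.42, 8.49, 8.69 and 8.80 on nbr RNAi arrays 1 to 5 and 8.42, 8.49, 8.21, 8.23 and 8.49 on control RNAi arrays 1 to 5. Arrays 4 and 5 of nbr RNAi stood clear of the controls, arrays 1 and 3 sat just above the highest control, and array 2 lay inside the control range. Its mean was 8.58 ± 0.16 in nbr RNAi and 8.37 ± 0.14 in control RNAi (SD, n = 5 each). The log2 fold change was 0.21 with an interval of 0.015 to 0.41, an unadjusted p of 0.0375 and an adjusted p of 0.849 (limma), so it did not pass. Array 5 was its highest array, and without that array the log2 fold change was 0.16, with an interval of -0.023 to 0.34 and an unadjusted p of 0.0804 in limma. That p was also above 0.05 when nbr RNAi array 4 or control RNAi array 3 or 4 was left out, at 0.0847, 0.0911 and 0.0883 in limma. The authors' deposited table gives esc a fold of 1.16 and a q-value of 19.5%, the lowest q-value of the 10, and gives the others 36.6% to 38.5%.

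Over all 5 nbr RNAi arrays ash1 and trx, histone methyltransferases of the trithorax group, had the largest SD of the 10 genes. On nbr RNAi arrays 1 to 4 alone the SD was 0.29 for ash1 and 0.18 for trx, against 0.33 for ph-d. For ash1 (FBgn0005386) the levels were 6.81, 6.73, 6.43, 6.17 and 3.06 on nbr RNAi arrays 1 to 5 and 7.26, 5.92, 6.31, 7.15 and 5.95 on control RNAi arrays 1 to 5. The first 4 nbr RNAi arrays fell inside the range of the controls, and array 5 was far below everything else, under the level of 4 used for testing and above the median of 2.37 that all 18769 probe sets other than controls had on it. The means were 5.84 ± 1.58 in nbr RNAi and 6.52 ± 0.65 in control RNAi (SD, n = 5 each). The log2 fold change of -0.68 had an interval of -2.18 to 0.82 (limma, adjusted p = 0.909). In the fit of the other 9 arrays it was 0.019 (interval -0.66 to 0.70).

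The trx probe set (FBgn0003862), which the deposited table assigns to 5 RefSeq transcripts, had 12.60, 12.88, 12.65, 12.44 and 10.92 on nbr RNAi arrays 1 to 5. Its control RNAi arrays 1 to 5 had 12.70, 12.45, 12.14, 12.36 and 12.63. Array 2 of nbr RNAi was the highest of the 10 arrays and array 5 the lowest, by more than 1 log2 unit. The means were 12.30 ± 0.78 in nbr RNAi and 12.46 ± 0.22 in control RNAi (SD, n = 5 each), a log2 fold change of -0.16 (interval -0.88 to 0.56, limma adjusted p = 0.963). In the fit without nbr RNAi array 5 the value was 0.19 (interval -0.085 to 0.46).

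The ATPase of the Brahma complex, brm (FBgn0000212, assigned to 4 transcripts), was close to level. It had 10.42, 10.47, 10.55, 10.61 and 10.21 on nbr RNAi arrays 1 to 5 and 10.52, 10.55, 10.40, 10.41 and 10.32 on control RNAi arrays 1 to 5. Again nbr RNAi array 5 was the lowest of all 10, and nbr RNAi arrays 3 and 4 were the highest. The log2 fold change was 0.012 with an interval of -0.16 to 0.18 (limma, adjusted p = 0.990).

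The intervals limit the size of a shift for most of these genes. The 95% interval excluded a change of 1.5-fold in either direction for 7 members, against 92.9% of tested probe sets, and of 2-fold for 9, against 98.0%. The exceptions at 1.5-fold were Psc, ash1 and trx, and at 2-fold ash1. A loss of expression per cell and a smaller share of expressing cells cannot be told apart in these bulk samples.

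Leaving out nbr RNAi array 5 moved the fold changes of the members upward except that of esc. That array was picked out from these data, and it was the lowest nbr RNAi array for 8 members. Removing a lowest value must raise the mean. The signs, p-values and standard errors below therefore describe the removal and give no separate evidence of a shift. All 10 log2 fold changes were then positive, with a median of 0.11, where 52.3% of tested probe sets were positive with a median of 0.0056. The shifts of ph-p, Psc, ash1 and trx turned from lower to higher, as did those of 10.1% of tested probe sets. Without that array 0 members were called by limma, against 0.0388% of tested probe sets, and 1 member, Su(z)2, reached an unadjusted p of 0.00825, with a higher mean; 5.37% of tested probe sets were higher at an unadjusted p under 0.05. Its groups still overlapped, as nbr RNAi array 4 lay below control RNAi array 1. The standard error was smaller without it for 9 of the 10 members and for 64.5% of tested probe sets, at 0.30 without the array and 0.67 with it for ash1, and at 0.12 and 0.32 for trx.

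**Figure D2:**
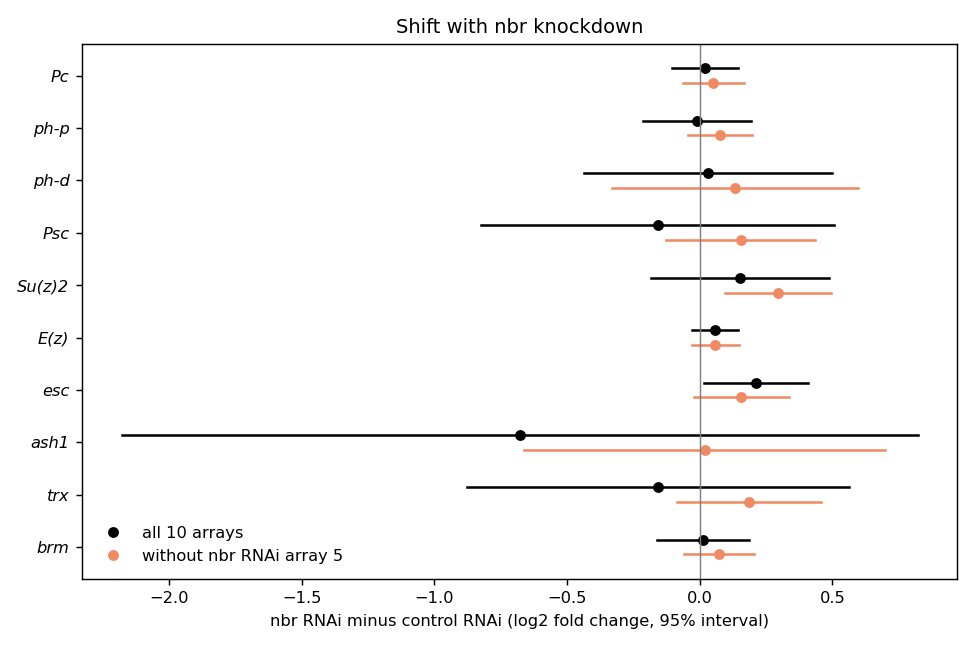
Log2 fold change (nbr RNAi minus control RNAi) of each gene with its 95% interval from limma, with all 10 arrays (black) and without nbr RNAi array 5 (orange). The orange points all lie above 0, and the black intervals of ash1, trx and Psc are the widest.

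Apart from the treatment shift, nbr RNAi array 5 lay outside the range of nbr RNAi arrays 1 to 4 for 9 of the 10 genes, below it for 8 and above it for esc. It was below all 9 other arrays for 7 members and above all 9 for esc. Over all tested probe sets it was below for 26.4% and above for 45.6%, so the members ran opposite to the more common direction on that array. It was below all 9 other arrays for 20.3% of tested probe sets and above them for 33.1%. Its difference from the mean of nbr RNAi arrays 1 to 4 had a median of -0.47 over the members and 0.066 over all tested probe sets. The array was picked out because it stands apart, so these distances are a description without a test.

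The largest distance was that of ash1, at 3.06 on array 5 against a mean of 6.54 on arrays 1 to 4. The difference in the values is -3.48, but the level on array 5 is near background, so only a bound can be read. With array 5 set to the level of 4, ash1 was at least 5.80-fold lower on it, a difference of -2.54, which is still the largest of the 10. For trx, array 5 had 10.92 against a mean of 12.64, a difference of -1.72 or 3.30-fold, at the 1.37 percentile of all tested distances. For Psc it had 6.84 against 8.41, a difference of -1.57 or 2.96-fold, at the 1.68 percentile.

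For 7 of the 8 members that were low, all but ph-d, the gap between array 5 and the nearest of arrays 1 to 4 exceeded the whole range of arrays 1 to 4, as it did for 14.7% of tested probe sets. That gap was 3.12 for ash1, 1.52 for trx and 1.34 for Psc, where arrays 1 to 4 spanned 0.64, 0.43 and 0.50. It was 0.38 for ph-p, 0.55 for Su(z)2, 0.21 for brm and 0.10 for Pc, where they spanned 0.15, 0.33, 0.19 and 0.094. A distance of at least 1 log2 unit downward was found for ash1, trx and Psc, against 4.1% of tested probe sets, and of at least 0.5 for 5 members, against 9.77%.

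The distance was -0.72 for Su(z)2, -0.52 for ph-d, -0.43 for ph-p, -0.31 for brm and -0.16 for Pc, all below the range of arrays 1 to 4. These lay between the 6.47 percentile (Su(z)2) and the 21.5 percentile (Pc) of all tested distances. In ph-d the gap below the nearest array was only 0.15, less than the 0.66 that arrays 1 to 4 spanned, and control RNAi array 5 was lower still.

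E(z) and esc, the members from Polycomb repressive complex 2, did not share the low values. E(z) was at 10.96 on array 5, inside the range of arrays 1 to 4 and 0.013 below their mean of 10.97. The distance of esc was 0.27 upward, at 8.80 against a mean of 8.52, higher than on any other array. Of the 7 tested genes listed with that complex apart from the members, however, Pcl (-0.63), Jarid2 (-0.48) and corto (-0.15) were below all 9 other arrays on array 5. The related genes Psc and Su(z)2 were both low on array 5.

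No other array set the members apart to that degree. The median size of a member's distance from the other 4 arrays of its group was 0.47 for nbr RNAi array 5. It was 0.080 to 0.21 for the other nbr RNAi arrays and 0.10 to 0.17 for the control RNAi arrays. Over all tested probe sets this median size was 0.18 for nbr RNAi array 5 and 0.053 to 0.095 for the other arrays. Array 5 thus stood apart for probe sets in general as well as for the members. On nbr RNAi array 2, 5 members lay above the other 4 arrays (Pc, ph-p, Psc, Su(z)2 and trx), where 19.8% of tested probe sets did. On control RNAi array 1, 4 members did so, where 17.0% did. The distances of nbr RNAi arrays 1 to 4 each include array 5 among the other 4, which raises them where array 5 is low.

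**Figure D3:**
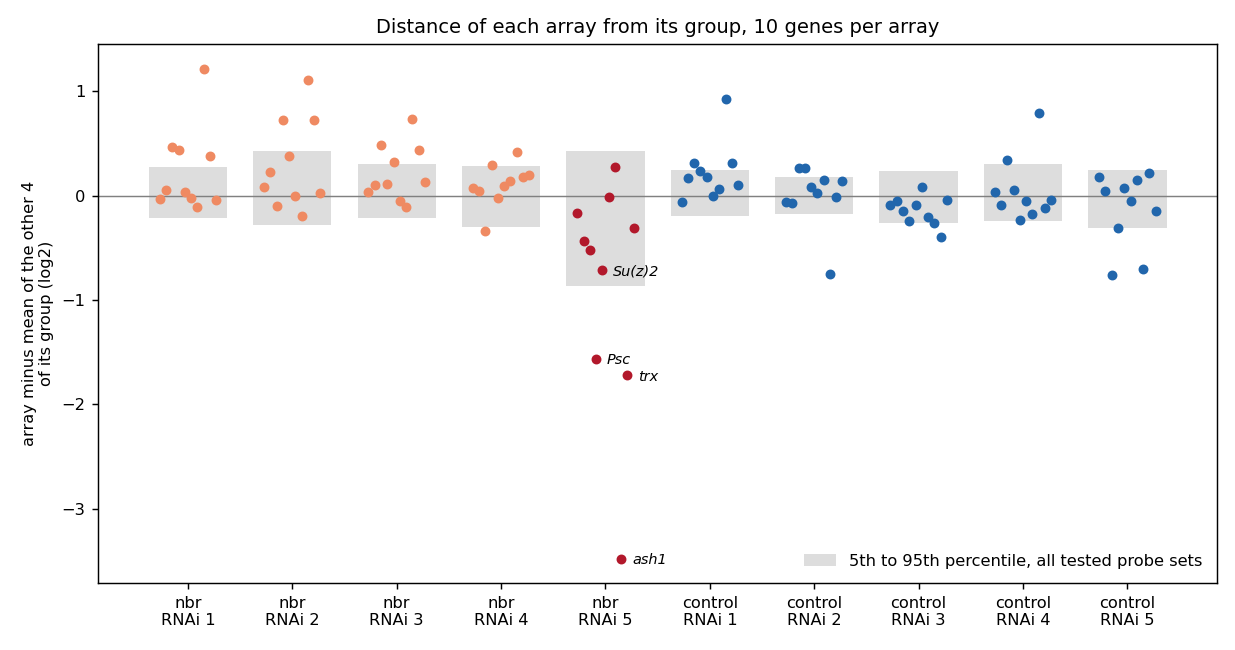
Difference (log2) of each array from the mean of the other 4 arrays of its group, 1 point for each of the 10 genes, with grey bars from the 5th to the 95th percentile of all 7729 tested probe sets on that array. On nbr RNAi array 5, ash1, trx and Psc lie below the grey bar, at -3.48, -1.72 and -1.57.

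Other values moved with array 5. The summed level of the 14 probe sets of blood cell markers was 112.7 on it, the lowest of the nbr RNAi arrays (112.7 to 116.6) and under the control RNAi arrays (113.5 to 114.5). Of 6 neuron marker genes, 1 reached a mean of 4, and they summed to 26.8 to 27.5 in nbr RNAi and 27.2 to 27.5 in control RNAi, with array 5 the highest of the nbr RNAi arrays and with n-syb, brp, para and Rdl near background. Of 4 glia marker genes, 3 reached it, and they summed to 27.1 to 28.0 in nbr RNAi and 26.0 to 27.2 in control RNAi, with repo near background. The neuron sum on array 5, 27.50, lay inside the control RNAi range of 27.20 to 27.52. Array 5 was at 27.9 for glia, above all control RNAi arrays and all but 1 nbr RNAi array. The blood cell sum on array 5 was thus below the control RNAi range and the glia sum above it, with the neuron sum inside. Fat body markers summed to 10.6 to 10.7 in nbr RNAi and 10.5 to 10.7 in control RNAi, muscle markers to 17.6 to 17.8 and 17.4 to 17.9, and germline markers to 17.8 to 18.3 and 17.2 to 18.3, with no member of these lists at a mean of 4. The part of these markers, of the higher nbr level and of the array's distance over the whole genome in the members' values was not tested.

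Related genes of the same complexes gave a background for the members, from lists that leave the 10 members out. Over all tested probe sets limma called 0.0259% and gave 5.87% an unadjusted p under 0.05, shares that stand beside the counts of each list below. Of 13 measured probe sets of the Polycomb repressive complex 1 and recruitment list, limma called 0 and gave 1 an unadjusted p under 0.05. The median log2 fold change was 0.014. The smallest p was that of crm (cramped), with a log2 fold change of 0.18, followed by Sfmbt at 0.086 and phol, a relative of the DNA-binding recruiter pho, at -0.097. Array 5 of nbr RNAi was below arrays 1 to 4 for 6 of the 13 and above for 4 (46.2% and 30.8%), with a median distance of -0.057. The lowest was RYBP, at 12.97 against a mean of 13.34, and sxc was at 13.07 against 13.30; both were below all 9 other arrays. Sce, the RING partner of Psc, was the highest (9.51 against 9.06), and Scm was level (13.02 against 13.02). These 4 were chosen after their values were seen.

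Of 7 tested probe sets of the Polycomb repressive complex 2 list, limma called 0 and gave 1 an unadjusted p under 0.05, with a median log2 fold change of -0.0047. Those with the smallest p were jing, at -0.12, escl, a paralog of esc, at 0.38, and the core subunit Su(z)12, at 0.070. Array 5 was below arrays 1 to 4 for 3 (42.9%) and above for 1, escl, at 9.06 against a mean of 8.54. Both escl and esc were highest on that array among the nbr RNAi arrays, and Pcl, a subunit that aids recruitment, was low at 8.04 against 8.67.

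Of 10 tested probe sets of the Brahma complex list, limma called 0 and gave 0 an unadjusted p under 0.05, with a median of -0.015. The scaffold subunit mor was at 0.098, polybromo at -0.093 and Snr1 at 0.032. Array 5 was below for 2 of the 10 and above for 4, against 26.4% and 45.6% of all tested probe sets. The median distance was 0.048, against 0.066 for all tested probe sets, so this list lay near the general run of that array. Most of the list did not share the low value of brm. The lowest was tou, at 10.36 against 11.01.

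Of 27 tested probe sets of the other trithorax group list, which covers histone methylation and remodelling genes, limma called 0 and gave 2 an unadjusted p under 0.05, with a median of -0.014. Mnn1, which encodes the fly menin, was at -0.36 with an interval of -0.59 to -0.13 and an adjusted p of 0.849 (limma). Its second probe set was at -0.16. The methyltransferase gene trr was at 0.19 and psq at 0.10.

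Array 5 was below arrays 1 to 4 for 12 of those 27 (44.4%) and above for 7 (25.9%), against 26.4% and 45.6% of all tested probe sets, with a median distance of -0.086. The 27 probe sets stand for 22 genes, and every tested probe set of dom and skd was among the 12. The lowest were E(bx), the large subunit of the NURF remodeller, at 10.34 against a mean of 11.74, and kis, a chromodomain helicase, at 12.21 against 13.29. CG40351, which the RefSeq table names Set1, a methyltransferase like trx, was at 10.94 against 11.93. These 3 were chosen after their values were seen.

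Target genes of the Polycomb group were mostly not measured. The 8 homeotic genes lab, pb, Dfd, Scr, Antp, Ubx, abd-A and Abd-B, with 13 probe sets, had means of 1.92 to 2.63 in nbr RNAi and 1.92 to 2.62 in control RNAi, all under the level of 4, so no shift of theirs could be read. Of 41 probe sets in the target list 8 were tested, of which limma called 0 and gave 2 an unadjusted p under 0.05, with a median log2 fold change of 0.094. The signalling gene hh had the smallest p, with a log2 fold change of 0.43 (interval 0.097 to 0.75, limma adjusted p = 0.849), followed by tup at 0.11 and dac at -0.13. Array 5 was below arrays 1 to 4 for 4 of the 8 and above for 1.

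The segment polarity gene en was the target that differed most on array 5, and was named after its values were seen. It had 8.15, 8.66, 7.88, 7.54 and 6.38 on nbr RNAi arrays 1 to 5 and 8.14, 7.58, 7.16, 7.22 and 7.21 on control RNAi arrays 1 to 5. Array 5 was the lowest of all 10, and the distance of -1.68 was close to those of trx and Psc. Its log2 fold change was 0.26 with all arrays and 0.60 without array 5, and it passed in neither fit (limma, adjusted p = 0.945 and 0.481).

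Over the 5 lists together, 64 probe sets were tested, of which limma called 0 and gave 6 an unadjusted p under 0.05. Of all tested probe sets limma called 0.0259% and gave 5.87% such a p. Array 5 was below nbr RNAi arrays 1 to 4 for 27 of the 64 and above for 17, that is 42.2% and 26.6%, where 26.4% of all tested probe sets were below and 45.6% above. The median distance was -0.054 for these 64, against 0.066 for all tested probe sets and -0.47 for the members. Pooled, the lists thus leaned low on array 5, by less than the members did. The Brahma complex list did not lean low, with a median distance of 0.048. Some genes, dom and skd among them, entered with more than 1 probe set.

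**Figure D4:**
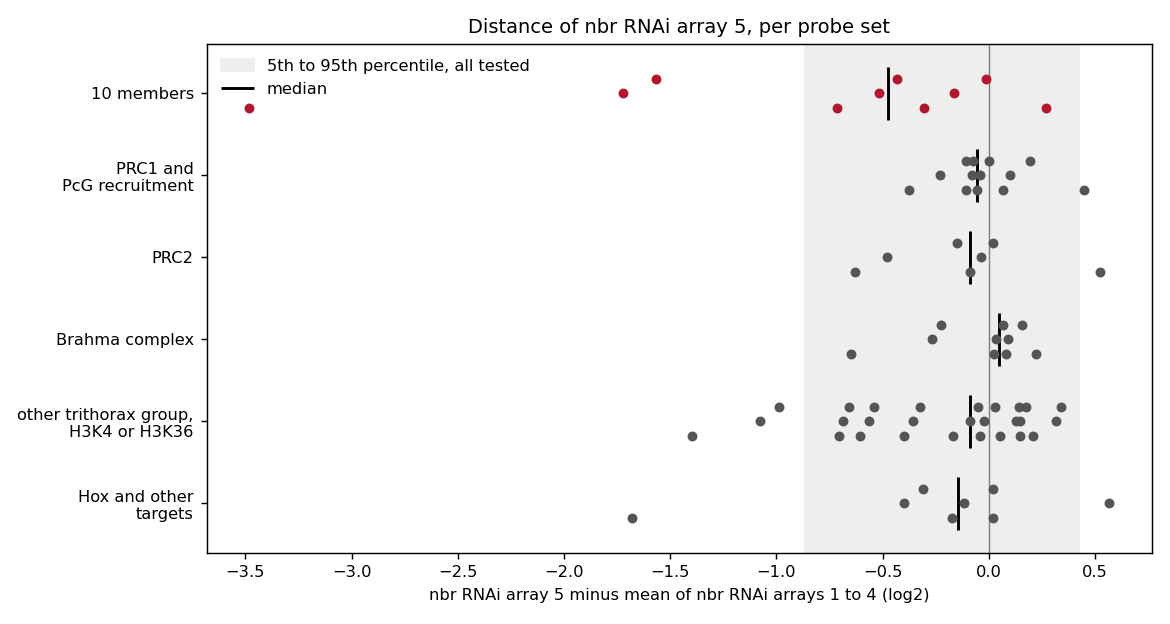
Difference (log2) of nbr RNAi array 5 from the mean of nbr RNAi arrays 1 to 4, 1 point per tested probe set, for the 10 members (red) and 5 lists of related genes (grey), with medians as black bars and the 5th to 95th percentile of all tested probe sets shaded. The members' median is -0.47, and ash1, near background on array 5, is the lowest point shown at -3.48.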

How the data were processed

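Biotin-labelled cDNA, amplified with the Ovation Pico WTA system from TRIzol-extracted total RNA per the labels' protocols, was hybridised to 10 arrays. The authors deposited a log2 level for each probe set and array, and the submitters' processing notes name GCRMA and Partek without versions. GCRMA makes the arrays alike in distribution, which hides any change in the total RNA of a cell. The authors' deposited table adds, per the file headers, a signed fold, a p-value, a q-value (as a percent) and a score.

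Of 18952 probe sets 183 controls were left out, and 7729 with a mean of at least 4 over the 10 arrays were tested. All 10 members passed this filter. The contrast nbr RNAi minus control RNAi was fitted in R 4.3.3 with limma 3.58.1 (lmFit, eBayes), with no covariate, 2-sided, with Benjamini-Hochberg adjustment over all tested probe sets and calls at an adjusted p under 0.05. The fit was tested on simulated data. Tables were made with pandas 2.3.3 under Python 3.11.15, plots with matplotlib 3.10.9.

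The distance of nbr RNAi array 5 is its level minus the mean of nbr RNAi arrays 1 to 4. The members and lists were chosen with earlier results of these data known. From each list the 3 genes with the smallest p were named. Symbols were matched in the file, then through RefSeq synonyms and accessions. Symbols not matched were Asx, calypso, lolal, osa, BRD7-9, nej and Dom, the last being dom under another spelling. The other trithorax group list also held sls, a muscle gene under the filter. Same-numbered arrays of the 2 groups did not deviate together (correlations across probe sets of -0.47 to 0.18), so the numbers were not taken as pairs. Alternatives were the filter, the normalization (quantile, or centring on the median), array weights, a robust fit, a test without moderation, the replicate block, the brightest probe set of each gene and the removal of each array in turn.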

Additional observations from a re-analysis of the deposited data

Results flagged for a closer look

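Within the 5 nbr RNAi arrays, array 5 lay far from the others for 4 of the 10 members, by the gap to the nearest array divided by the range of the 5, where a value above 0.71 marks a distant array. This ratio was 0.829 for ash1, 0.779 for trx, 0.729 for Psc and 0.716 for ph-p, each time with array 5 low. Chance marks about 1 in 20 groups, counting any of the 5 arrays on either side. Over all tested probe sets any nbr RNAi array was marked in 15.5% and any control RNAi array in 6.08%. Array 5 was marked as low in 7.01%. That share counts only this array and only low values, so 1 in 20 is not its chance rate, which would be lower. No control RNAi group of the members was marked. Among the other genes named, array 5 was marked as low for E(bx) at 0.91, RYBP at 0.884, CG40351 (Set1) at 0.862, kis at 0.827, tou at 0.779 and Pcl at 0.729, genes singled out for their low values on it. The second probe set of Mnn1 had nbr RNAi array 4 low, at 0.963, and corto had control RNAi array 2 high, at 0.789.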

How the results depend on the processing

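In all 19 alternatives of the limma fit the number of members called stayed at 0, as did that of the related lists. The count over all tested probe sets was 2, and was 4 with median centring, 4 with array weights, 3 with the robust trend, 1 with the replicate number as a block (replicate block), and 1 to 3 when each array was left out. The cause was not tested. Without array 1, 3 or 4 of nbr RNAi or array 1, 2, 3 or 5 of control RNAi it was 1. The members' signs were less steady. With array weights, where nbr RNAi array 5 had the lowest weight, 0.154, the log2 fold changes turned to 0.060 for ph-p, 0.018 for Psc, 0.064 for ash1 and 0.12 for trx. Over the 10 fits of 9 arrays the log2 fold change ran from -0.054 to 0.078 for ph-p, -0.12 to 0.13 for ph-d, -0.30 to 0.15 for Psc, -0.92 to 0.019 for ash1, -0.30 to 0.19 for trx and -0.027 to 0.073 for brm, each crossing 0. It kept its sign for Pc, Su(z)2, E(z) and esc. The unadjusted p of esc lay between 0.0209 and 0.0911 in those fits, and was 0.0714 after quantile normalization, 0.121 with array weights and 0.0572 with the robust trend (limma). The number of members with array 5 outside the range of arrays 1 to 4 was 9, and 8 after quantile normalization and against all other 9 arrays. Most tested probe sets were outside too. Array 5 was below for 8 members in the main setting and for 7 in each of those 2. Over all tested probe sets it was below for 26.4%, 25.3% and 20.3% in that order. It was above for 45.6%, 47.7% and 33.1%. With 5 arrays a group, signals near background (ash1 on array 5, ph-d) limit what can be read of their size.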
